A study of Mus musculus with 8 samples.

Results

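A set of 10 genes known for their roles in primitive and extraembryonic endoderm was followed across mouse embryonic stem cells with and without β-catenin: the transcription factors Gata4, Gata6, Sox7 and Sox17, the endocytic adaptor Dab2, the endocytic receptor genes Lrp2, Cubn and Amn, the growth factor receptor Pdgfra and the apolipoprotein Apoe. They were chosen by gene symbol, with earlier results of these data known. All of them were among the 48440 genes of the count table. Of these 10, 9 had enough counts to be tested together with 17739 genes in all, and Sox17 did not. The cells were embryonic stem cells of blastocyst origin on the 129/Ola background, kept on gelatin without feeder cells in serum medium whose listed components do not include leukaemia inhibitory factor. The 4 groups were knock-out cells (CTNNB1-/-) with CHIR99021, knock-out cells with DMSO, parental cells (CTNNB1+/+) with CHIR99021 and parental cells with DMSO. CHIR99021, an inhibitor of the kinase GSK3, was given at 3 μM and its vehicle DMSO at 0.3 μl/ml, each for 72 hours. Each group had 2 libraries of polyadenylated RNA. Nothing in the labels says that replicate libraries were grown as separate cultures, and a p-value here reflects only how far libraries of a group differ, a spread that can be technical. Each genotype was 1 line, so that genotype and line cannot be told apart.

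Primitive endoderm is the extraembryonic lineage that separates from the epiblast in the blastocyst under fibroblast growth factor signalling, and it gives rise to the visceral and the parietal endoderm of the yolk sac. GATA6 acts at the top of this lineage, followed by GATA4, SOX17 and SOX7, while PDGFRA marks its cells from early on. The visceral endoderm takes up maternal nutrients through megalin (Lrp2) and cubilin (Cubn), which work with amnionless (Amn) and the adaptor DAB2, and it secretes apolipoproteins. GSK3 marks β-catenin for destruction, and its inhibition lets β-catenin act on target genes together with TCF/LEF factors, but GSK3 also has substrates outside this pathway.

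The libraries held between 23650572 and 27680649 estimated counts. The unit of level is CPM, a gene's counts per 1000000 of the library total after scaling. Ctnnb1, the targeted gene, was at 9.06 ± 0.510 CPM in knock-out cells with CHIR99021 and 9.35 ± 1.94 CPM in knock-out cells with DMSO, against 828.4 ± 21.3 CPM in parental cells with CHIR99021 and 896.5 ± 12.8 CPM in parental cells with DMSO (SD, n = 2 each). The embryonic stem cell markers were high in every group. Per kilobase of exons, Pou5f1 was between 608.4 CPM in knock-out cells with CHIR99021 and 688.7 CPM in parental cells with DMSO, and Nanog was between 221.7 and 275.4 CPM in the same groups. Of the genes of mature visceral endoderm some were at or near 0: Ttr and Apoa4 had no counts in any library, Afp had 1 count in all 8 libraries together, and Foxa2 and Cer1 stayed at or below 0.321 CPM in every group mean. Others were present, among them Mttp, which loads lipid onto apolipoprotein B, at 4.25 to 7.18 CPM in the group means, and Hnf4a, a regulator of liver and visceral endoderm, at 3.35 to 4.99 CPM. In bulk RNA, fewer cells of a type and less RNA per cell cannot be told apart.

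Only Apoe reached the range of the epiblast genes. Apoe, which encodes a lipid carrier that binds receptors of the LDL receptor family, was at 179.6 CPM per kilobase in knock-out cells with CHIR99021, 114.6 in knock-out cells with DMSO, 206.8 in parental cells with CHIR99021 and 132.4 in parental cells with DMSO. Lrp2, Sox7 and Gata4 formed a middle group, with group means of 0.512 to 4.27 CPM per kilobase. Dab2, Amn, Cubn, Pdgfra, Gata6 and Sox17 lay below them in every group, at 0.0132 to 0.714 CPM per kilobase. The lowest of all was Sox17, which encodes an endoderm factor of the SOXF family, with 0.0761 CPM per kilobase in its highest group, knock-out cells with CHIR99021.

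**Figure D1:**
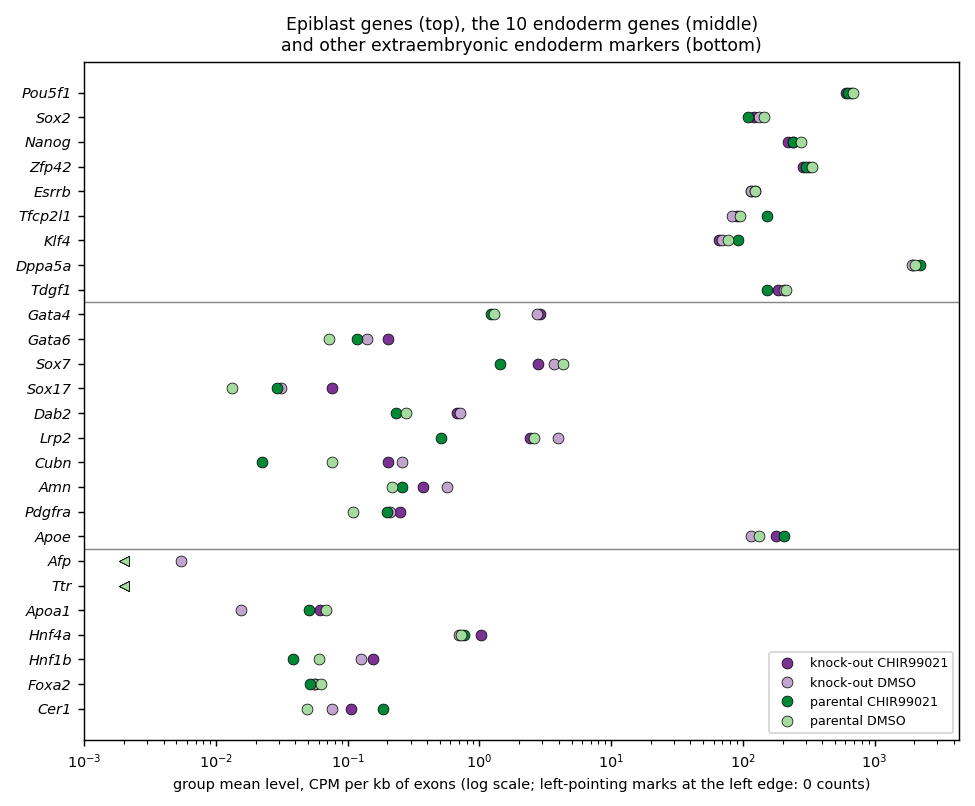
Mean level of each group in CPM per kilobase of exons on a log axis, with epiblast genes at the top, the 10 endoderm genes in the middle and other extraembryonic endoderm markers at the bottom. Apoe, at 114.6 to 206.8, is the only one of the 10 that lies among the epiblast genes, and Ttr is at 0 in all groups.

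In DMSO, the knock-out cells had higher levels of 8 of the 10 genes by group mean, the exceptions being Sox7 and Apoe. With CHIR99021 they had higher means of 9 of the 10, all but Apoe. Of the 9 tested genes, 5 were called higher and 1 lower in knock-out than in parental cells with DMSO (edgeR quasi-likelihood test, Benjamini-Hochberg adjusted p under 0.05), where 6.75% of all tested genes were called, 3.13% higher and 3.62% lower. The count of 6 was 3 without knock-out DMSO replicate 1, parental DMSO replicate 1 or parental DMSO replicate 2. With CHIR99021 again 5 were called higher and 1 lower, with 23.7% of all tested genes called, 11.2% higher and 12.5% lower. Gata4, Dab2, Lrp2 and Cubn were called higher in both, and Apoe was called lower in both. The knock-out and parental comparisons share libraries with the CHIR99021 comparisons below, so that each gene's values are given side by side and not as separate evidence.

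Within parental cells CHIR99021 changed 5 of the 9 tested genes, of which 2 rose (Pdgfra and Apoe) and 3 fell (Sox7, Lrp2 and Cubn). Of all tested genes 19.4% were called there, 9.1% higher and 10.3% lower. The count of 5 was 3 without parental CHIR99021 replicate 2, parental DMSO replicate 1 or parental DMSO replicate 2. Within knock-out cells it changed 2, Apoe upward and Lrp2 downward, with 7.06% of all tested genes called, 2.88% higher and 4.18% lower. The difference between these CHIR99021 effects, tested as an interaction, was called for Sox7 and Lrp2, both in the positive direction, that is with the less negative effect in knock-out cells. Over all genes 6.13% were called in the interaction, 3.22% higher and 2.91% lower.

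**Figure D2:**
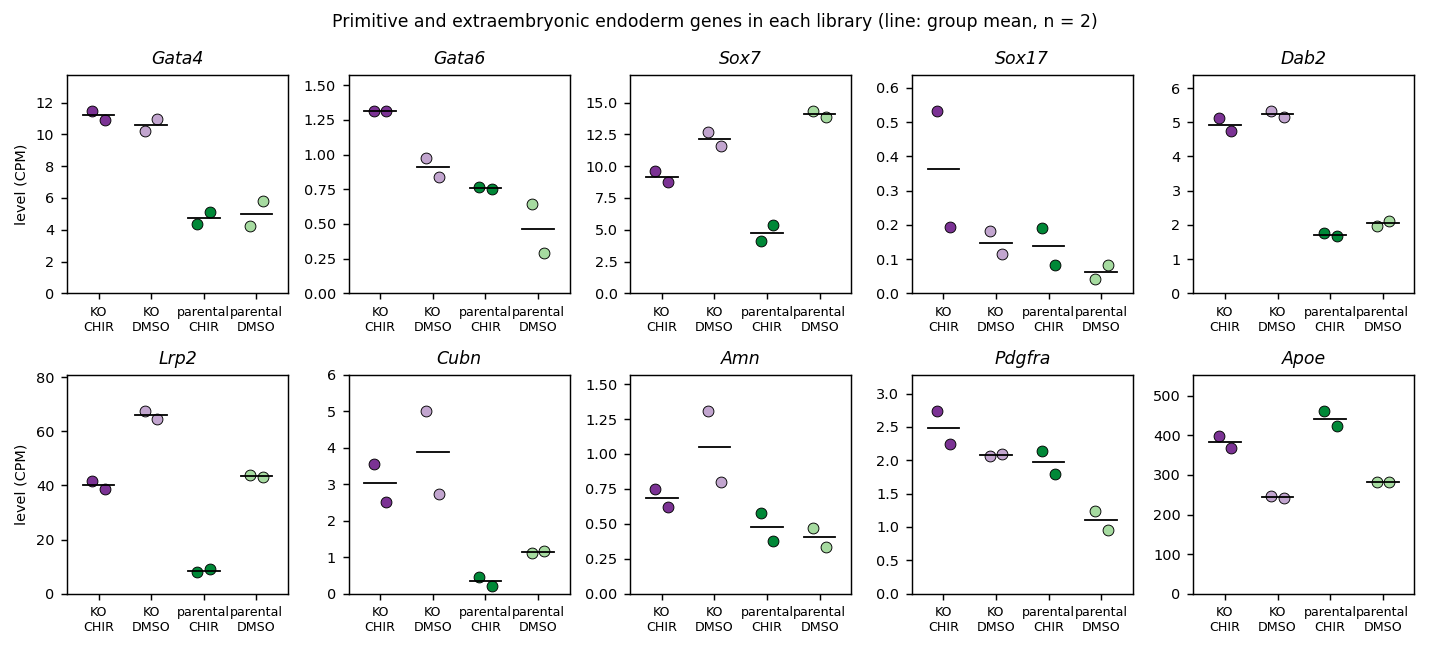
Level in CPM of each of the 10 genes in every library (points) with the group mean (line, n = 2). Knock-out libraries lie above the parental libraries for Gata4, Dab2 and Cubn in both media, and for Lrp2 the parental libraries with CHIR99021, at 8.12 and 8.99 CPM, lie far below the other 6.

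The reference sequence just before and after the start of transcription was read for 6 of the 10 genes, in 9 promoter entries of RefSeq on GRCm38.p6, each with 250 bases before and 50 from the start on. Gata4, Gata6, Sox7 and Sox17 had no entry, so that none is shown for them. The 4 shown belong to megalin, cubilin, Dab2 and Apoe. Megalin and cubilin were lowest in parental cells with CHIR99021, as were Gata4, Sox7 and Dab2 by group mean. Dab2 was called between the lines but not for CHIR99021, and Apoe rose with CHIR99021 in both lines. Capitals mark matches, on either strand, to 3 short motifs: CTTTGAT (reverse ATCAAAG) of TCF/LEF factors, AGATAA (reverse TTATCT) of GATA factors and ACAATG (reverse CATTGT) of SOX factors. The TATA box letters TATAAA (reverse TTTATA) had no match in these 4. Sequences are 5′ to 3′ on the strand of the gene, for Lrp2 at chr2:69585980-69586279 (minus), Cubn at chr2:13491827-13492126 (minus), Dab2 at chr15:6299539-6299838 (plus) and Apoe at chr7:19699139-19699438 (minus).
Lrp2: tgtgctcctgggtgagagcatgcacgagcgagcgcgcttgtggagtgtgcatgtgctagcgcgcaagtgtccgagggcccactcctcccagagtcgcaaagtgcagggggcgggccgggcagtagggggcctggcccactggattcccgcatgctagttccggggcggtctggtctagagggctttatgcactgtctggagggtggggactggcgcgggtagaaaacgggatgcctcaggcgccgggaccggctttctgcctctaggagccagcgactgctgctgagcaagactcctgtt
Cubn: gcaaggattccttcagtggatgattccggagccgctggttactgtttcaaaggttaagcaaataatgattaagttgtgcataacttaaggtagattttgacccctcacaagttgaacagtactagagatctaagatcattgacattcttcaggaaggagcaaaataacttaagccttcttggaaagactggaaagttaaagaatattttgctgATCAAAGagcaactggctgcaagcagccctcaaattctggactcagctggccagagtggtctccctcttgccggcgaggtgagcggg
Dab2: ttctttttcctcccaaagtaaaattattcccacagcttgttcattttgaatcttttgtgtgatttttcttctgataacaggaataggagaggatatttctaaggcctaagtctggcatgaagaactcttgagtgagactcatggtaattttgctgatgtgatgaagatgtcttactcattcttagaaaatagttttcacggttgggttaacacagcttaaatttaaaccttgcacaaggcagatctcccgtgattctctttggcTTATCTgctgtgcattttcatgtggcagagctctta
Apoe: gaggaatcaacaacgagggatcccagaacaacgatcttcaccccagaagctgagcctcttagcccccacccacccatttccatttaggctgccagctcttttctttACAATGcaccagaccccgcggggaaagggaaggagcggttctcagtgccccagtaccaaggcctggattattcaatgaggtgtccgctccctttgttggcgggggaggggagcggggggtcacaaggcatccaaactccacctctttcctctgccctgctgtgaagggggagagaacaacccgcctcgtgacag

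The Cubn window holds 1 TCF/LEF match, on the reverse strand with its first base at -37 from the start, and 3.73% of 32851 promoters of the same length hold that motif. That start is the one of RefSeq. The whole Cubn window lies before the start that GENCODE gives the gene, 13491813 on the minus strand. Dab2 has 1 GATA match, on the reverse strand at 15, a motif found in 11.2% of promoters. Apoe has 1 SOX match at -144, a motif found in 12.6%, and the Lrp2 window, with 65.0% G and C against a median of 52.7% over all promoters, has none of the 4 motifs (TATAAA stands in 13.6%). None of these windows shares a motif match with another, and the matches overlap no other motif searched. The second Dab2 entry has no match to any of the 4 motifs, and neither of the other Apoe entries has a SOX match, 1 of them having 2 TATA matches. Amn and Pdgfra have no match in their entries. Matches describe letters in the reference and say nothing of binding in these cells.

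Gata4, a zinc-finger factor that drives the endoderm programme (chromosome 14, 63198922 to 63271692, minus strand, GRCm38), had 11.5 and 10.9 CPM in the knock-out libraries with CHIR99021, 10.2 and 10.9 CPM in those with DMSO, 4.37 and 5.10 CPM in the parental libraries with CHIR99021 and 4.21 and 5.81 CPM in those with DMSO. All 4 knock-out libraries lay above all 4 parental ones, while the parental libraries with CHIR99021 lay within the range of those with DMSO. Gata4 was 2.11-fold higher in knock-out than in parental cells with DMSO (log2 fold change 1.08 ± 0.14 SE, adjusted p = 0.00171). With CHIR99021 the log2 fold change was 1.24 ± 0.14 (adjusted p = 9.79e-05). The effect of CHIR99021 on Gata4 was 0.08 ± 0.13 in knock-out cells (95% interval -0.28 to 0.44) and -0.09 ± 0.16 in parental cells (95% interval -0.52 to 0.35), with adjusted p of 0.764 and 0.759.

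Gata6, the earliest of these factors in the lineage (chromosome 18, 11052064 to 11085635, plus strand), was close to the lower limit of detection. It had 37 and 34 counts in the knock-out libraries with CHIR99021, 27 and 22 in those with DMSO, 20 and 18 in the parental libraries with CHIR99021 and 15 and 7 in those with DMSO. The knock-out libraries had more counts than the parental libraries in each medium, without overlap. No comparison passed the test: the log2 fold change of knock-out over parental cells was 0.96 ± 0.39 with DMSO (adjusted p = 0.181) and 0.79 ± 0.34 with CHIR99021 (adjusted p = 0.127). Counting error alone gave 95% intervals of 1.16 to 3.41 and 1.15 to 2.64 for these ratios of summed counts, which leave out the spread between libraries. For CHIR99021 over DMSO the values were 0.53 ± 0.33 in knock-out cells and 0.70 ± 0.40 in parental cells (adjusted p = 0.38 and 0.266).

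Sox17 (chromosome 1, 4490931 to 4497354, minus strand) had 15 and 5 counts in the knock-out libraries with CHIR99021, 5 and 3 in those with DMSO, 5 and 2 in the parental libraries with CHIR99021 and 1 and 2 in those with DMSO. The highest count was in 1 knock-out library with CHIR99021, and the other library of that group had no more counts than the highest knock-out library with DMSO or the highest parental library with CHIR99021. With so few counts a difference was not detectable across libraries: without the filter on low counts, adjusted p was between 0.376 and 1 in the 5 comparisons. The summed counts of 20 in knock-out and 7 in parental cells with CHIR99021 gave a ratio of 2.64 with a 95% counting interval of 1.07 to 7.4.

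Sox7, the other SOXF factor and one that also acts in blood vessel and blood development, followed another order (chromosome 14, 63943673 to 63950732, plus strand). It had 9.63 and 8.73 CPM in the knock-out libraries with CHIR99021, 12.7 and 11.6 CPM in those with DMSO, 4.14 and 5.35 CPM in the parental libraries with CHIR99021 and 14.3 and 13.9 CPM in those with DMSO. The parental libraries were thus both the highest, with DMSO, and the lowest, with CHIR99021, and no groups overlapped. In parental cells Sox7 fell by 1.57 on the log2 scale with CHIR99021 (SE 0.12, adjusted p = 5.45e-06). In knock-out cells its value was -0.40 ± 0.11 (adjusted p = 0.0561), a call that passed under several alternatives, with adjusted p of 0.0448 in limma-voom, 0.0412 without parental CHIR99021 replicate 1 and 0.0394 without parental CHIR99021 replicate 2.

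The difference between the lines in the CHIR99021 effect on Sox7 was 1.17 ± 0.17 (adjusted p = 0.00158). Knock-out over parental cells gave -0.21 ± 0.11 with DMSO (adjusted p = 0.295, 95% interval -0.52 to 0.09) and 0.96 ± 0.13 with CHIR99021 (adjusted p = 0.000279). Of 8 endothelial markers 1, Emcn, had no counts in any library, and Cdh5, the endothelial cadherin gene, averaged 1.59 CPM in knock-out cells with CHIR99021, 2.06 CPM in knock-out cells with DMSO, 0.415 CPM in parental cells with CHIR99021 and 1.03 CPM in parental cells with DMSO. The summed level of the 8 was 95.08 to 96.93, 84.54 to 86.75, 72.9 to 76.61 and 73.41 to 73.48 CPM in the libraries of the same groups in the same order, most of it Pecam1, which embryonic stem cells also express. Tek and Sox18 were, like Cdh5, lowest by group mean in parental cells with CHIR99021. Esam, Tie1 and Kdr were lowest in knock-out cells with CHIR99021, and Pecam1 in parental cells with DMSO. The part of these markers in the Sox7 result was not tested.

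Dab2, a clathrin adaptor that binds the tails of LDL family receptors and is an early marker of primitive endoderm, differed between the lines and showed no detectable CHIR99021 effect (chromosome 15, 6299788 to 6440712, plus strand). It had 5.11 and 4.75 CPM in the knock-out libraries with CHIR99021, 5.33 and 5.15 CPM in those with DMSO, 1.76 and 1.67 CPM in the parental libraries with CHIR99021 and 1.97 and 2.12 CPM in those with DMSO. The 4 knock-out libraries lay above the 4 parental ones without overlap. Dab2 was 2.56-fold higher in knock-out than in parental cells with DMSO (log2 fold change 1.35 ± 0.16, adjusted p = 0.000748), and the log2 fold change with CHIR99021 was 1.52 ± 0.16 (adjusted p = 5.51e-05). CHIR99021 gave -0.09 ± 0.14 in knock-out cells (95% interval -0.47 to 0.30) and -0.25 ± 0.18 in parental cells (95% interval -0.74 to 0.24). The interaction for Dab2 was 0.16 ± 0.23 and that for Gata4 0.17 ± 0.20 (adjusted p = 0.76 and 0.706), with 95% intervals of -0.46 to 0.79 and -0.39 to 0.73.

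Lrp2 encodes megalin, the large receptor that carries proteins and vitamins across the visceral endoderm and the kidney tubule, and it is also active in the neural ectoderm (chromosome 2, 69424340 to 69586065, minus strand). It had 41.5 and 38.6 CPM in the knock-out libraries with CHIR99021, 67.4 and 64.4 CPM in those with DMSO, 8.12 and 8.99 CPM in the parental libraries with CHIR99021 and 43.7 and 42.9 CPM in those with DMSO. No groups overlapped, and replicates lay close together. With CHIR99021 Lrp2 was 5.07-fold lower than with DMSO in parental cells (log2 fold change -2.34 ± 0.07, adjusted p = 6.51e-09). In knock-out cells it fell by 0.72 (SE 0.06, adjusted p = 0.000193), and the difference between the lines in the CHIR99021 effect was 1.62 ± 0.09 (adjusted p = 4.02e-06).

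Compared with parental cells, knock-out cells had more Lrp2 in both media, by 0.60 ± 0.06 on the log2 scale with DMSO (adjusted p = 3e-04) and by 2.23 ± 0.07 with CHIR99021 (adjusted p = 6.21e-09). The summed level of neural ectoderm markers fell with CHIR99021 in both lines, as Lrp2 did. With DMSO, unlike Lrp2, it overlapped between the lines. Over 6 genes, of which none was at 0, it was 101.3 to 104.2 CPM in the knock-out libraries with CHIR99021, 123.6 to 132.4 CPM in those with DMSO, 61.56 to 63.27 CPM in the parental libraries with CHIR99021 and 127.5 to 130.7 CPM in those with DMSO. Most of it was Tubb3, with group means of 61.2, 77.9, 33.7 and 73.8 CPM in that order. With CHIR99021 all 5 tested genes of that list fell in parental cells and 4 of 5 fell in knock-out cells, in edgeR and in limma-voom. Of all tested genes edgeR called 10.3% and 4.18% lower there. DESeq2 called 5 and 1 of the list lower, and 1232 and 520 of all 17739 tested genes. Between knock-out and parental cells with DMSO none of the 5 was called by edgeR, DESeq2 or limma-voom, with 1 at an unadjusted p under 0.05. There edgeR called 6.75% of all tested genes. With CHIR99021 edgeR called 4 higher in knock-out cells, against 11.2% of all tested genes, and DESeq2 and limma-voom called 3 each. The part of the neural markers in the Lrp2 result was not tested.

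Cubn encodes cubilin, the peripheral partner of megalin, which has no membrane anchor of its own (chromosome 2, 13276338 to 13491813, minus strand). It had 3.55 and 2.51 CPM in the knock-out libraries with CHIR99021, 5.0 and 2.75 CPM in those with DMSO, 0.460 and 0.209 CPM in the parental libraries with CHIR99021 and 1.12 and 1.16 CPM in those with DMSO. All knock-out libraries lay above all parental ones and the parental libraries with CHIR99021 were lowest. The parental values with CHIR99021 rest on 12 and 5 counts. Cubn was higher in knock-out than in parental cells with CHIR99021 by 3.15 ± 0.42 on the log2 scale (adjusted p = 0.000288), a ratio of summed counts of 8.98 with a 95% counting interval of 5.44 to 15.8.

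With DMSO the log2 difference of Cubn between knock-out and parental cells was 1.76 ± 0.34 (adjusted p = 0.0116). That call was lost without knock-out DMSO replicate 1 (1.27, adjusted p = 0.087), without parental DMSO replicate 1 (adjusted p = 0.0862) and without parental DMSO replicate 2 (adjusted p = 0.0634). In parental cells Cubn fell by 1.73 with CHIR99021 (SE 0.48, adjusted p = 0.0266). The fall was no longer called without parental CHIR99021 replicate 2 (-1.30, adjusted p = 0.155), without parental DMSO replicate 1 (adjusted p = 0.083), without parental DMSO replicate 2 (adjusted p = 0.093) and in limma-voom (adjusted p = 0.0929). In knock-out cells the value was -0.35 ± 0.30 (adjusted p = 0.525), and the interaction, 1.38 ± 0.57, was not called (adjusted p = 0.196). An opposite-strand transcript, Gm13270, overlaps Cubn and averaged 13.9 counts per library, and the strand setting of the counting is not given in the sources used here.

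Amn encodes amnionless, the transmembrane subunit that brings cubilin to the cell surface (chromosome 12, 111271095 to 111276426, plus strand). It had 21 and 16 counts in the knock-out libraries with CHIR99021, 36 and 21 in those with DMSO, 15 and 9 in the parental libraries with CHIR99021 and 11 and 8 in those with DMSO. In CPM the knock-out libraries lay above the parental ones in each medium, without overlap. The log2 fold change of knock-out over parental cells was 1.38 ± 0.42 with DMSO (adjusted p = 0.0824) and 0.51 ± 0.43 with CHIR99021 (adjusted p = 0.434). The DMSO difference passed when no filter on low counts was applied (adjusted p = 0.0255), and its ratio of summed counts was 2.64 with a 95% counting interval of 1.55 to 4.7.

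**Figure D3:**
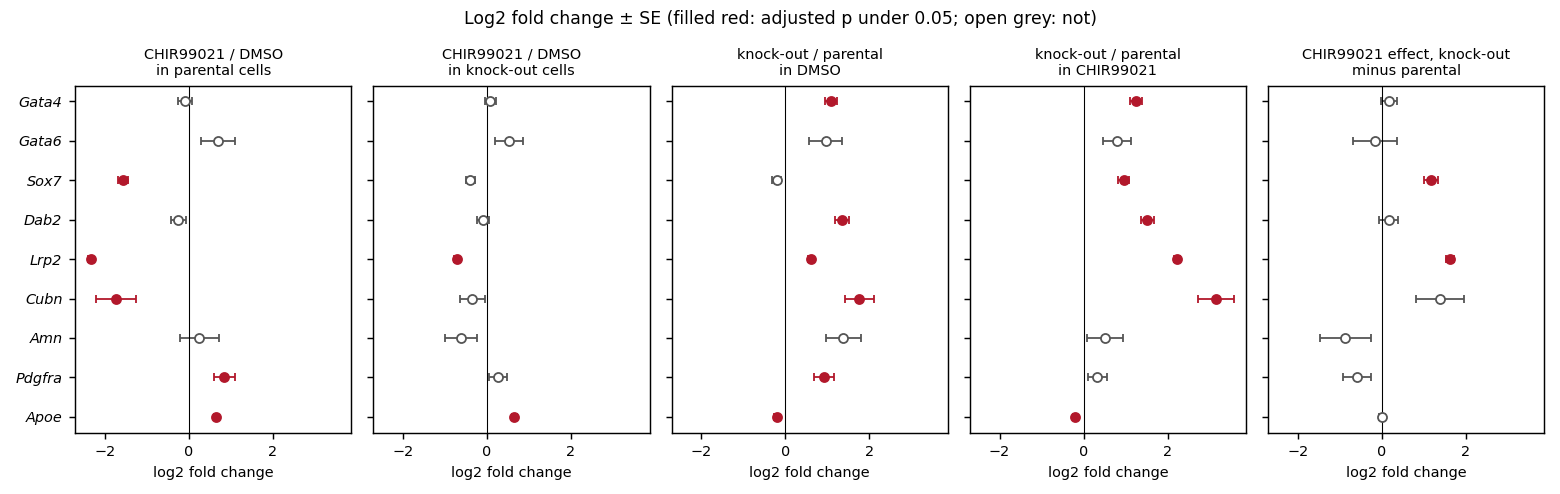
Log2 fold change with SE of the 9 tested genes in the 5 comparisons, filled where adjusted p was under 0.05. Gata4, Dab2, Lrp2 and Cubn are higher in knock-out cells in both media, and Lrp2, at -2.34, has the lowest value with CHIR99021 in parental cells.

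Pdgfra, the receptor for platelet-derived growth factor A and an early surface marker of primitive endoderm, was low throughout (chromosome 5, 75152292 to 75198215, plus strand). It had 2.73 and 2.24 CPM in the knock-out libraries with CHIR99021, 2.07 and 2.10 CPM in those with DMSO, 2.15 and 1.80 CPM in the parental libraries with CHIR99021 and 1.24 and 0.954 CPM in those with DMSO. The parental libraries with DMSO were the lowest and did not overlap with any other group. In parental cells Pdgfra rose by 0.84 ± 0.25 with CHIR99021 (adjusted p = 0.0335), and with DMSO it was higher in knock-out than in parental cells by 0.92 ± 0.24 (adjusted p = 0.0463). With CHIR99021 the lines differed by 0.33 ± 0.22 (adjusted p = 0.307, 95% interval -0.27 to 0.94), and in knock-out cells CHIR99021 gave 0.26 ± 0.22 (adjusted p = 0.525).

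Both Pdgfra calls were near the threshold. Without each of the 8 libraries in turn, the knock-out difference with DMSO had adjusted p from 0.0535, without parental CHIR99021 replicate 1, to 0.233, without parental DMSO replicate 2, and was never called. The rise in parental cells was lost without parental CHIR99021 replicate 1 (adjusted p = 0.169) or replicate 2 (0.0521), without parental DMSO replicate 1 (0.0559) or replicate 2 (0.189), and in DESeq2 (0.197). Among 9 fibroblast markers, another source of Pdgfra, Postn, Dcn and Lum had no counts in any library. The summed level of the 9 was 24.98 to 26.64 CPM in the knock-out libraries with CHIR99021, 22.37 to 23.35 CPM in those with DMSO, 27.97 to 29.23 CPM in the parental libraries with CHIR99021 and 16.87 to 20.66 CPM in those with DMSO. Most of it came from Thy1, Fbn1 and Pdgfrb. In that order of groups Thy1 averaged 7.87, 7.02, 6.07 and 3.84 CPM, an order that Pdgfra shared. Fbn1 averaged 9.36, 8.82, 7.41 and 8.51 CPM, and Pdgfrb 6.56, 5.23, 13.3 and 4.74 CPM. The part of the fibroblast markers in the Pdgfra result was not tested.

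The ligand gene Pdgfa rose in parental cells with CHIR99021 by 0.86 ± 0.06 (adjusted p = 1.5e-06) and gave 0.08 ± 0.06 in knock-out cells (adjusted p = 0.431), an interaction of -0.78 ± 0.08 (adjusted p = 0.000209). It averaged 45.3 CPM in knock-out cells with CHIR99021, 42.8 CPM in knock-out cells with DMSO, 80.6 CPM in parental cells with CHIR99021 and 44.4 CPM in parental cells with DMSO. Pdgfrb, the second receptor, rose in parental cells by 1.48 ± 0.12 (adjusted p = 7.01e-06). Pdgfc, another ligand, was higher in knock-out cells by 0.49 ± 0.07 with DMSO and 0.52 ± 0.07 with CHIR99021 (adjusted p = 0.00266 and 0.000321). Kit, a related receptor, was lower in knock-out cells by 0.53 and 1.09 on the log2 scale in the same media (SE 0.05 each, adjusted p = 0.000134 and 5.71e-08). Of the 8 tested genes of the PDGF ligands, receptors and close receptor relatives, 2 rose and none fell with CHIR99021 in parental cells (median log2 fold change 0.01, against 0.00 over all genes), none rose and 1 fell in knock-out cells (-0.21), 1 was higher and 1 lower in knock-out than parental cells with DMSO (0.13), and 1 was higher and 3 lower with CHIR99021 (-0.33). Of all tested genes 19.4%, 7.06%, 6.75% and 23.7% were called in these comparisons, in the same order.

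Apoe had an order of its own (chromosome 7, 19696109 to 19699188, minus strand). It was at 399.1 and 369.1 CPM in the knock-out libraries with CHIR99021, 247.0 and 243.0 CPM in those with DMSO, 460.9 and 423.2 CPM in the parental libraries with CHIR99021 and 282.8 and 283.3 CPM in those with DMSO. CHIR99021 libraries lay above DMSO libraries in both lines, and within each medium the knock-out libraries lay below the parental ones, without overlap. With CHIR99021 Apoe rose by 0.65 ± 0.05 in knock-out cells (adjusted p = 0.000173) and by 0.64 ± 0.05 in parental cells (adjusted p = 5.06e-06). The difference between these effects was 0.01 ± 0.07 (adjusted p = 0.978), with a 95% interval of -0.19 to 0.20.

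Apoe was lower in knock-out than in parental cells by 0.21 on the log2 scale with DMSO and by 0.20 with CHIR99021 (SE 0.05 each, adjusted p = 0.0323 and 0.0119). The DMSO call was lost without knock-out DMSO replicate 1 (adjusted p = 0.1) or replicate 2 (0.124) and without parental DMSO replicate 1 (0.152) or replicate 2 (0.137), the value staying between -0.22 and -0.20. The CHIR99021 call was lost without knock-out CHIR99021 replicate 2 (-0.14, adjusted p = 0.13) and without parental CHIR99021 replicate 1 (-0.14, adjusted p = 0.117). Of 7 markers of macrophages and glia, cells rich in Apoe, Adgre1 and Lyz2 had no counts in any library. The summed level of the 7 was 14.83 to 16.12 CPM in the knock-out libraries with CHIR99021, 15.68 to 16.53 CPM in those with DMSO, 14.64 to 14.75 CPM in the parental libraries with CHIR99021 and 17.84 to 18.29 CPM in those with DMSO, and most of it was Cd68, at 13.9 to 17.3 CPM in the group means. Ptprc, the leukocyte common antigen, was at 0.145 CPM in knock-out cells with CHIR99021 against 0.0935 CPM with DMSO. It was at 0.202 CPM in parental cells with CHIR99021 against 0.105 CPM with DMSO. These means rest on 8, 5, 10 and 5 counts in that order. By group mean Cd68 was lower with CHIR99021, at 14.52 against 14.95 CPM in knock-out and 13.85 against 17.3 CPM in parental cells. Gfap was lower with CHIR99021 in knock-out cells (0.703 against 1.06 CPM) and higher in parental cells (0.637 against 0.574 CPM). Csf1r had 5 and 0 counts in knock-out cells and 0 and 4 in parental cells. Aqp4 had 1 count, in knock-out cells with CHIR99021. The part of macrophages and glia in the Apoe result was not tested.

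Genes beside Apoe in its cluster and targets of the liver X receptors, which control Apoe in macrophages and fat, did not move as one group. Of 18 tested, 7 rose and 2 fell with CHIR99021 in parental cells (median log2 fold change 0.24, against 0.00 over all genes), and 1 rose and 3 fell in knock-out cells (-0.07). Between knock-out and parental cells 2 were higher and 2 lower with DMSO (0.02), and 2 were higher and 7 lower with CHIR99021 (-0.13), against 19.4%, 7.06%, 6.75% and 23.7% of all tested genes called in the 4 comparisons in that order. Apoc1, an apolipoprotein gene of the list, averaged 10.6 CPM with CHIR99021 against 8.26 CPM with DMSO in knock-out cells. In parental cells it averaged 11.7 against 8.19 CPM, and only there was it called. Apoc2 and Apoc4 had lower means with CHIR99021 in knock-out cells and higher means in parental cells, both at low levels. Pltp, a phospholipid transfer protein, rose with CHIR99021 by 0.54 ± 0.06 in knock-out cells and by 0.41 ± 0.06 in parental cells (adjusted p = 0.000673 and 0.000572). The cholesterol exporter gene Abca1 fell in parental cells by 1.24 (SE 0.06, adjusted p = 1.85e-07), to 25.6 CPM with CHIR99021 against 60.6 CPM with DMSO.

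Some other genes of primitive endoderm were called higher in knock-out cells in both media. This list and the other lists were chosen with earlier results of these data known, so that their counts are no separate support. Of 15 tested regulators and markers other than the 10 genes, 4 were higher and none lower in knock-out than in parental cells with DMSO (median log2 fold change 0.41, against 0.00 over all genes, of which 3.13% were higher and 3.62% lower), and 7 were higher and 1 lower with CHIR99021 (0.77, with 11.2% of all genes higher and 12.5% lower). In parental cells 1 rose and 5 fell with CHIR99021 (-0.64, with 9.1% of all genes higher and 10.3% lower). In knock-out cells none passed (0.00) in edgeR, DESeq2 or limma-voom, with 4 at an unadjusted p under 0.05. There edgeR called 7.06% of all tested genes. Podxl, a sialomucin of epithelial surfaces, averaged 21.5 CPM in knock-out cells with CHIR99021, 23.0 CPM in knock-out cells with DMSO, 8.23 CPM in parental cells with CHIR99021 and 15.8 CPM in parental cells with DMSO, and fell in parental cells by 0.94 (SE 0.08, adjusted p = 1.4e-05). Fgf4, the epiblast ligand that drives the lineage choice, is counted in this list and is among the 5 that fell, though it is a gene of the epiblast. Fgf4 fell in parental cells by 0.82 (SE 0.04, adjusted p = 8.91e-08) and gave 0.02 ± 0.04 in knock-out cells (adjusted p = 0.847), an interaction of 0.84 ± 0.05 (adjusted p = 4.96e-06). Its receptor gene Fgfr2 was higher in knock-out than in parental cells with CHIR99021 by 2.19 ± 0.31 (adjusted p = 0.00049).

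**Figure D4:**
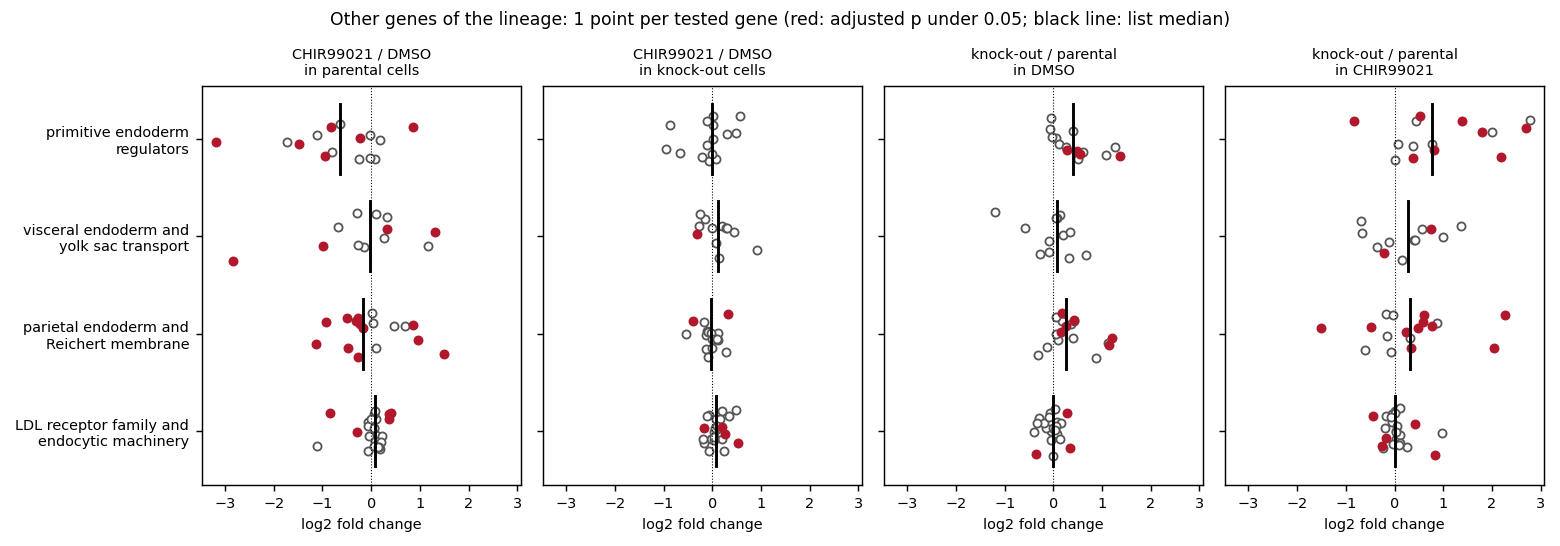
Log2 fold change of every tested gene of 4 lists in 4 comparisons (1 point per gene, red where adjusted p was under 0.05, line at the list median). The medians of the primitive endoderm list are -0.64 with CHIR99021 in parental cells and 0.77 for knock-out over parental cells with CHIR99021, and those of the LDL receptor list are near 0.

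Genes of parietal endoderm, the lineage that lays down the thick Reichert membrane, included collagen IV, whose chains Col4a1 and Col4a2 were higher in knock-out cells in both media. Of 17 tested, 6 were higher and none lower in knock-out than in parental cells with DMSO (median 0.25, with 6.75% of all tested genes called), and 8 were higher and 2 lower with CHIR99021 (0.32, with 23.7% of all called). With CHIR99021 against DMSO 3 rose and 9 fell in parental cells (-0.16, with 19.4% of all called), and 1 rose and 1 fell in knock-out cells (-0.02, with 7.06% of all called). Of the 6 higher in knock-out cells with DMSO, Sparc (0.14 to 0.15) was not called in DESeq2, with no filter, with the compared groups alone or with a replicate block. Nid1 (0.17) was not called with the compared groups alone. Lamb1, not among the 6, was called higher there with no filter (0.18) and with at least 5 CPM in 2 libraries (0.20). Vim was called lower with no filter (-0.15). Col4a1 averaged 69.8 CPM in knock-out cells with CHIR99021, 73.7 CPM in knock-out cells with DMSO, 14.5 CPM in parental cells with CHIR99021 and 32.0 CPM in parental cells with DMSO. It was higher in knock-out than in parental cells by 1.20 ± 0.07 with DMSO (adjusted p = 1.06e-05) and by 2.26 ± 0.08 with CHIR99021 (adjusted p = 1.42e-08), and the neighbouring gene Col4a2 by 1.15 ± 0.07 and 2.05 ± 0.07 (adjusted p = 6.12e-06 and 1.18e-08). Collagen IV is also made by many other epithelial and vascular cells.

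Of 23 visceral endoderm and yolk sac transport genes other than the 10, 12 were tested, and in each group 5 of the 23 had no counts. Among the 12, none was called by edgeR or DESeq2 between knock-out and parental cells with DMSO (median 0.06), where 2 had an unadjusted p under 0.05 and limma-voom called 1 lower (6.75% of all tested genes were called by edgeR). With CHIR99021 1 was higher and 1 lower in knock-out than in parental cells (0.29, with 23.7% of all called). With CHIR99021 against DMSO 2 rose and 2 fell in parental cells (-0.02, with 19.4% of all called) and 1 fell in knock-out cells (0.11, with 7.06% of all called). Emb, the glycoprotein embigin, fell in parental cells by 0.98 (SE 0.07, adjusted p = 1.99e-06). Otx2, a factor of anterior visceral endoderm that the epiblast also uses, fell there by 2.84 (SE 0.43, adjusted p = 0.000737), to 0.296 CPM with CHIR99021 against 2.18 CPM with DMSO.

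The relatives of megalin and the general endocytic machinery were called in both directions. Of 24 tested genes 3 rose and 2 fell with CHIR99021 in parental cells (median 0.07, with 19.4% of all tested genes called) and 3 rose and 1 fell in knock-out cells (0.08, with 7.06% of all called). Between knock-out and parental cells 2 were higher and 1 lower with DMSO (-0.00, with 6.75% of all called), and 2 were higher and 3 lower with CHIR99021 (0.02, with 23.7% of all called). Dab1, the neural relative of Dab2, fell in parental cells by 0.84 (SE 0.09, adjusted p = 5.06e-05). Sorl1, a sorting receptor of the family, rose there by 0.37 ± 0.05 (adjusted p = 0.000443) and was lower in knock-out than in parental cells with DMSO by 0.35 (SE 0.05, adjusted p = 0.00334).

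Among the GATA and SOXF relatives only 4 of 7 were tested. With CHIR99021 1 was higher and 1 lower in parental cells (median -0.66, with 19.4% of all tested genes called). In knock-out cells 1 was lower (-0.43, with 7.06% of all called). DESeq2 called 1 lower and none higher in parental cells, and none in knock-out cells. Between the lines with DMSO none was called (0.25, with 6.75% of all called), and 0 in DESeq2, limma-voom and at an unadjusted p under 0.05. With CHIR99021 1 was higher in knock-out than in parental cells (0.38, with 23.7% of all called). Gata2, a factor of blood and trophoblast, averaged 4.93 CPM in knock-out cells with CHIR99021, 7.73 CPM in knock-out cells with DMSO, 3.18 CPM in parental cells with CHIR99021 and 6.71 CPM in parental cells with DMSO. In parental cells Gata2 fell by 1.08 with CHIR99021 (SE 0.12, adjusted p = 0.000104).

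Markers of definitive endoderm and the anterior streak share genes with extraembryonic endoderm. Of 5 tested, 3 rose in parental cells with CHIR99021, where 9.1% of all tested genes were called higher. The summed level of the 10 streak markers was 9.732 to 10.31 CPM in the knock-out libraries with CHIR99021, 9.861 to 10.72 CPM in those with DMSO, 50.64 to 52.94 CPM in the parental libraries with CHIR99021 and 9.17 to 9.917 CPM in those with DMSO. Most of the excess was Eomes, at 1.08, 1.39, 30.4 and 1.48 CPM, and T, at 0.108, 0.334, 11.3 and 0.340 CPM, in the same order of groups. The summed level of the 16 extraembryonic endoderm markers, 9 of them among the 10 genes, was 75.73 to 82.51, 103 to 109, 27.05 to 28.39 and 71.2 to 72.17 CPM in that order, and Lrp2 was the highest single gene in it in every group. The part of the streak markers in the results for Sox7, Lrp2, Cubn and Pdgfra was not tested.

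The genes most like Lrp2 over the 8 libraries, among 520 with a mean log2 CPM of at least 1 and a range of at least 1 between group means, were Camkv (Pearson r 0.999), Cdkn1c (0.997), Pdzd4 (0.997), Pcsk1n (0.995) and Ptch1 (0.994). Cdkn1c, which encodes a cell-cycle inhibitor, averaged 36.3 CPM in knock-out cells with CHIR99021, 57.3 CPM in knock-out cells with DMSO, 12.5 CPM in parental cells with CHIR99021 and 40.3 CPM in parental cells with DMSO. Those most like Apoe among 521 such genes were Cbr3 (0.993), Anxa5 (0.988), Scara5 (0.978), Hmga2 (0.960) and Cd63 (0.958). Cbr3 averaged 13.3 CPM in knock-out cells with CHIR99021, 5.90 CPM in knock-out cells with DMSO, 16.4 CPM in parental cells with CHIR99021 and 8.19 CPM in parental cells with DMSO. The 8 points fall into 4 groups of 2 and share their libraries and scaling, so that these r describe the order of the groups.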

How the data were processed

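Polyadenylated RNA of 8 libraries was counted by the authors. The deposited table holds estimated counts per Ensembl gene, not normalised, made with kallisto on GRCm38.p4 per the submitters' processing notes. The transcript set, the summing to genes and the strand setting are not given in the sources used here. Each column carries its library's title. Estimated counts were rounded and analysed in R 4.3.3 with edgeR 4.0.16: filterByExpr by group (10 counts, 15 in total) kept 17739 genes with 99.905% to 99.918% of the counts, TMM factors ran between 0.9857 and 1.0181, and the model gave each group its own mean over all 8 libraries (4 residual degrees of freedom). The 5 comparisons used the quasi-likelihood F test, 2-sided, with Benjamini-Hochberg adjustment over all tested genes at 0.05. The SE was obtained as the size of the log2 fold change over the root of F, and 95% intervals of fold changes take 4 degrees of freedom. Intervals of count ratios are exact binomial (Clopper-Pearson) and cover counting error only.

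Levels per kilobase use the exon union of GENCODE M21 on GRCm38, and promoter sequences are from RefSeq. The procedure was tested on simulated data. Alternatives were DESeq2 1.42.0, voom in limma 3.58.1, other size factors, other filters, the compared groups alone, a replicate block and leaving out each library. In counts of DESeq2 calls, a gene that DESeq2 gave no adjusted p counted as not called. The 10 genes, the lists and the rule for naming genes were chosen with earlier results of these data known. The rule names the 10 genes and Ctnnb1, per list and comparison up to 4 genes of smallest adjusted p, list genes of at least 5 CPM as values, defining markers of other cell types as values, and the 5 genes most like Lrp2 and Apoe.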

Additional observations from a re-analysis of the deposited data

Results flagged for a closer look

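The effect of CHIR99021 on Sox7 and on Lrp2 differed between the lines by the test of the difference itself. For Sox7 the effect in knock-out cells minus that in parental cells was 1.17 on the log2 scale (edgeR adjusted p = 0.00158), and for Lrp2 it was 1.62 (adjusted p = 4.02e-06). Both effects were negative in both lines and larger in size in parental cells. With 2 libraries per group, no group was large enough to test single libraries as outliers.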

How the results depend on the processing

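No value of the 9 tested genes changed direction while called. Over the alternatives, 121 of 131 values for CHIR99021 in parental cells kept their side of the threshold, 121 of 126 in knock-out cells, 109 of 127 for knock-out over parental cells with DMSO, 128 of 130 with CHIR99021 and 119 of 120 for the interaction. Of the 10 genes, 5 were called for CHIR99021 in parental cells, but 3 with at least 5 CPM in 2 libraries, where 5 were tested. Of all 11122 genes tested under that filter, 3261 were called. Leaving out 1 library gave 3 to 5 there, 2 to 3 in knock-out cells, 3 to 5 (against 6) for knock-out over parental cells with DMSO, 5 to 6 (against 6) with CHIR99021 and 2 in each case for the interaction. The count for knock-out over parental cells with DMSO was 3 without knock-out DMSO replicate 1, parental DMSO replicate 1 or parental DMSO replicate 2, and that for parental cells was 3 without parental CHIR99021 replicate 2, parental DMSO replicate 1 or parental DMSO replicate 2; these fits take a group's single remaining library to have the spread of the other groups. In knock-out cells 3 genes were called by limma-voom, with no filter beyond 1 read and with at least 5 CPM, Sox7 being the third. The interaction was called for 3 genes with no filter, Cubn being the third (adjusted p = 0.0213). DESeq2 called 4, 2, 4, 6 and 2 genes in the 5 comparisons, and 2205, 846, 795, 2709 and 743 of all 17739 tested genes. It gave Cubn and Pdgfra no adjusted p for knock-out over parental cells with DMSO. Where leaving out 1 library lowered a count to 3, fewer of all tested genes were called too than with all 8 libraries. Libraries with the same replicate number did not deviate together (correlations of -0.06 to 0.14), and a replicate block left the counts at 5, 2, 6, 6 and 2. Depth limits Gata6, Sox17, Amn and, in parental cells, Cubn. The cause of the changed calls was not tested.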

Other observations

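Markers of trophoblast and mesoderm, 2 other early lineages, summed to far less than the naive epiblast markers. The summed level of 8 trophoblast markers was 39.66 to 43.37 CPM in the knock-out libraries with CHIR99021, 50.43 to 52.67 CPM in those with DMSO, 40.6 to 45.47 CPM in the parental libraries with CHIR99021 and 49.33 to 52.41 CPM in those with DMSO. Most of it was Tfap2c, at 35.7 to 45.6 CPM in the group means. Cdx2 averaged 0.166, 0.237, 1.57 and 0.106 CPM in the same order of groups. For 10 mesoderm markers, Pdgfra among them, the summed level was 4.016 to 4.688, 4.097 to 4.12, 3.554 to 4.061 and 2.739 to 2.876 CPM in the same order. The 9 naive epiblast markers summed to 6071 to 6102, 6255 to 6400, 6926 to 7026 and 6775 to 6784 CPM.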
